A study of Mus musculus with 24 samples.

Results

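Keratins are the intermediate filament proteins of epithelial cells, and 6 keratin genes are described here in mouse liver: Krt7, Krt8, Krt18, Krt19, Krt20 and Krt23. They were listed by name and looked up in the deposited expression table, where each was represented by 1 probe set, and they make 6 of the 18820 genes measured. Keratin filaments are built from pairs, with a type II keratin (here Krt7 and Krt8) joined to a type I keratin (here Krt18, Krt19, Krt20 and Krt23). Adult hepatocytes are known to make the pair of Krt8 and Krt18 and little of any other keratin, whereas the cells lining bile ducts also make Krt7 and Krt19. Krt20 is best known from the lining of the gut and the urinary tract, and Krt23 is a type I keratin known to be induced in injured liver. Krt8 and Krt18 are also the keratins of Mallory-Denk bodies, the protein aggregates of stressed hepatocytes.

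The study measured the RNA of 24 livers, 1 array per liver, in 8 groups of 3 mice. Livers labelled control were set against NEMO/JNKΔhepa triple knockout livers in untreated mice aged 52 weeks. Livers labelled control were set against JNKΔhepa double knockout livers 40 days after treatment with diethylnitrosamine (DEN), a liver carcinogen. The same was done 28 days after bile duct ligation (BDL), which blocks the outflow of bile. At 8 weeks of age, untreated NEMO single knockout livers were set against NEMO/JNK1Δhepa double knockout livers, so that both groups of that comparison lack NEMO by label. NEMO, encoded by Ikbkg, is needed to activate NF-kB, and JNK1 and JNK2 are stress kinases encoded by Mapk8 and Mapk9. The line uses Cre under the albumin promoter, which is active in hepatocytes, on a C57BL/6 background. The protocol describes JNKΔhepa mice as floxed for Jnk1 and deficient for Jnk2 throughout, while the design text marks Jnk2 as deleted in hepatocytes like Jnk1. For the NEMO/JNK line the protocol gives NEMOΔhepa and NEMOf/f mice as controls, and the genotype of the DEN and BDL controls is not given further. How old the treated mice were is not stated in the labels.

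Values are log2 expression levels, on which a difference of 1 is a doubling, and a level can be compared between livers but not between probe sets. Array medians over all probe sets lay between 4.52 and 4.66, and livers of a group correlated at 0.966 to 0.987 over the same probe sets. The mean of Mapk8 was lower in the knockout, or the double knockout at 8 weeks, of each comparison, and limma with Benjamini-Hochberg adjustment over all 18820 genes called it at 52 weeks (5.65 ± 0.11 against 6.52 ± 0.18, SD, n = 3, adjusted p = 0.00259) and after BDL (5.69 ± 0.30 against 6.71 ± 0.15, adjusted p = 0.0299). Ikbkg fell at 52 weeks, from 7.30 ± 0.26 to 6.45 ± 0.02 (limma adjusted p = 0.0043). At 8 weeks, where both groups lack NEMO by label, Ikbkg stood at 7.07 and 6.92, close to the 6.98 and 7.02 of the JNKΔhepa livers, which keep NEMO by label. Mapk9 read 2.82 to 3.51 in all 18 livers of the other experiments, the 9 labelled control included, against 7.99 to 8.53 in the 6 livers of 8 weeks. The Mapk9 level thus goes against the word control in those 9 labels, and they are called livers labelled control throughout.

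The range over the 24 livers was 8.86 to 11.17 for Krt8 and 8.97 to 11.13 for Krt18. It was 4.15 to 9.06 for Krt7, 4.40 to 9.84 for Krt19, 2.82 to 8.56 for Krt20 and 3.79 to 7.08 for Krt23. The hepatocyte pair therefore moved over the narrowest span and Krt20 over the widest. The array held 45 other keratins, with means over the 24 livers from 2.39 to 6.04 and no liver above 6.98.

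**Figure D1:**
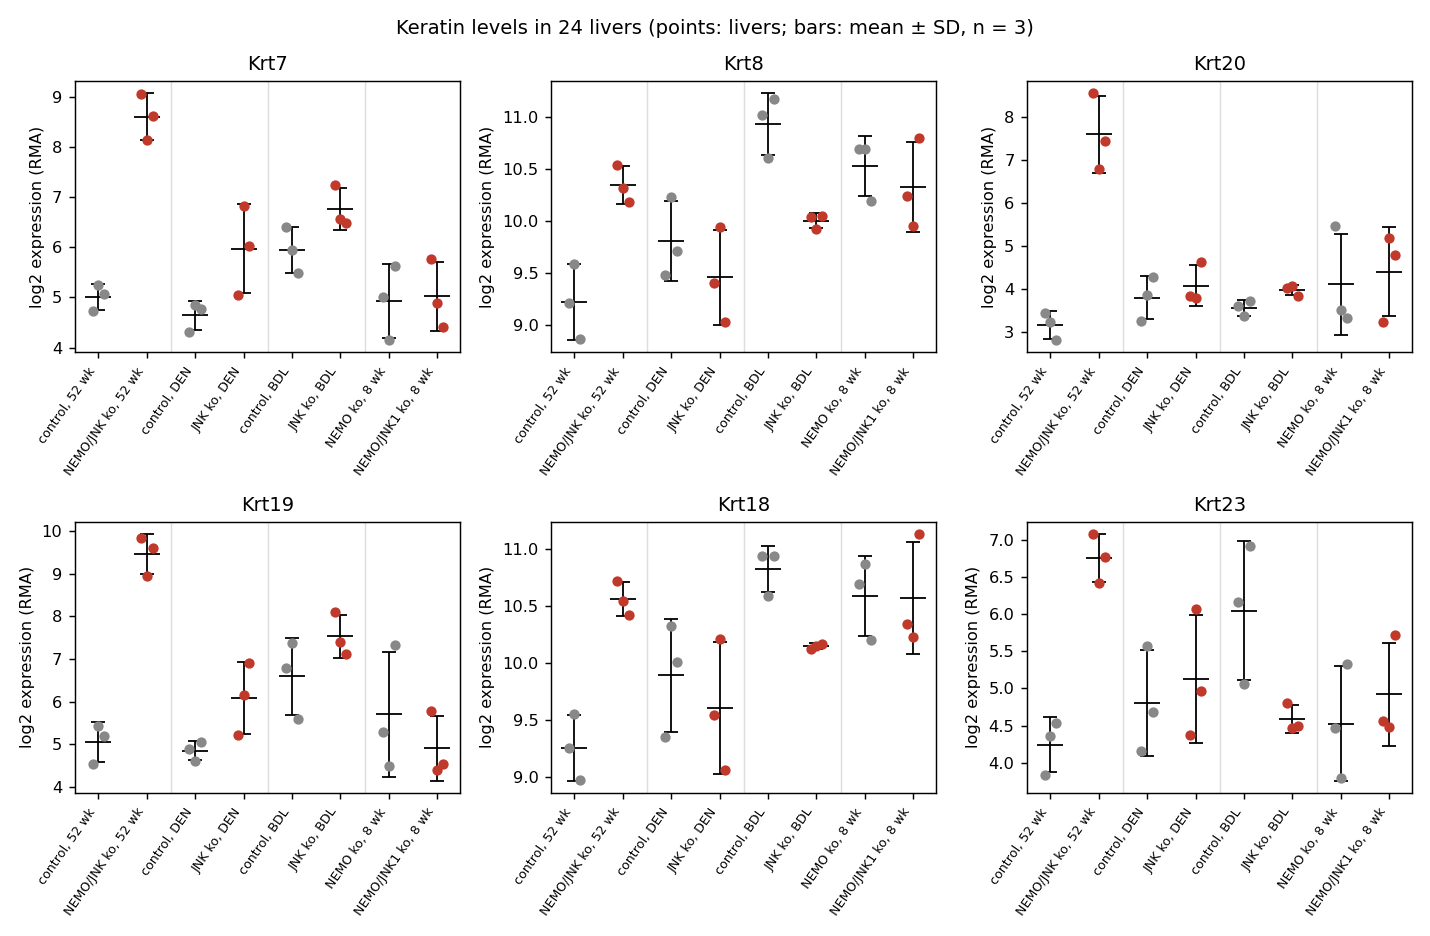
Log2 expression of each keratin (vertical axis) in the 8 groups (horizontal axis), with 1 point per liver and bars for the mean ± SD of 3 livers. Krt7, Krt19 and Krt20 stand highest in the NEMO/JNKΔhepa livers of 52 weeks, above every other liver, while Krt8 and Krt18 have their highest mean in livers labelled control after BDL.

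The promoters of 4 of these genes are shown. They are Krt8 and Krt18, which moved together below, and Krt7 and Krt20, whose windows held matches to the motifs. Each sequence holds the 250 bases before the RefSeq transcription start on GRCm38.p6, read 5′ to 3′ on the gene's own strand. Capitals mark matches, on either strand, to the letters of 4 short motifs: GGAATG (TEAD), TGANTCA (AP-1), GGGCGG (the GC box) and TATAAA (the TATA box). The motifs were chosen after the sequences were seen. Windows were available for 5 of the 6 genes, Krt19 being the gene without one, and a match is a description of letters only.
Krt8, chr15:102004343-102004592, minus strand: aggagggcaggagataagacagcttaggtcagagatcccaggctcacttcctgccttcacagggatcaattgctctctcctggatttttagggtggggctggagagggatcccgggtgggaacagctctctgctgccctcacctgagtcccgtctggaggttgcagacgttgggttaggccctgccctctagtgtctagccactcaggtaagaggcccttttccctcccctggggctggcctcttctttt
Krt18, chr15:102027966-102028215, plus strand: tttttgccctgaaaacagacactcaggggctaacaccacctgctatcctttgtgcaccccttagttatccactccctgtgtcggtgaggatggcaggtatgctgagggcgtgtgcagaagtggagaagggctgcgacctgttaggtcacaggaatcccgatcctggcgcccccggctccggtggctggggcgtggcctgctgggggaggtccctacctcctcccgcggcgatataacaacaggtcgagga
Krt7, chr15:101412153-101412402, plus strand: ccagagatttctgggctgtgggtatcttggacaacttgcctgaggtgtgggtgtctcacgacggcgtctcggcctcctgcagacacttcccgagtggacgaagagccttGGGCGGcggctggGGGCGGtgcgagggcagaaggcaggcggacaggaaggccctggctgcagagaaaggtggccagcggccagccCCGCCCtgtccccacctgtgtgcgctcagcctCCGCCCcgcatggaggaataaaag
Krt20, chr11:99438154-99438403, minus strand: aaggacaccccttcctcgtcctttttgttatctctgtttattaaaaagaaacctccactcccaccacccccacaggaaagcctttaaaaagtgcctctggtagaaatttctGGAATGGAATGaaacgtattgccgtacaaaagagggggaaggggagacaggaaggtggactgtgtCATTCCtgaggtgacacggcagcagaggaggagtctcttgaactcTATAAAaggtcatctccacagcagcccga
The windows of Krt8, Krt18 and Krt23 (chr11:99493121-99493370, minus strand) held none of the 4 motifs. The Krt7 window held 4 GC boxes, which 32.7% of 32851 promoter windows of this length hold at least once. The Krt20 window held 3 matches to the TEAD letters, of which 2 overlap by 1 base (139 to 134 and 134 to 129 bases before the start) and the other lies 74 to 69 bases before it, and 12.6% of all windows hold at least 1. It also held a TATA box 29 to 24 bases before the start, found in 12.4% of windows. The AP-1 letters were in none of the 5 windows and in 6.7% of all. Krt8 and Krt18 lie next to each other among the protein-coding genes of chromosome 15, with the long noncoding genes Gm36026 and Gm41404 between them, and Krt20 and Krt23 are adjacent on chromosome 11.

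At 52 weeks all 6 keratins rose in the NEMO/JNKΔhepa livers, Krt19 by 21.2-fold, Krt7 by 12.1-fold, Krt18 by 2.47-fold and Krt8 by 2.18-fold. Krt20 and Krt23 rose from levels not shown to be above background. The bile duct and gut-type keratins thus had larger differences than the hepatocyte pair. Among all genes 13.6% were called higher in this comparison, and in 20.9% every knockout liver stood above every liver labelled control, as was so for all 6 keratins.

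Krt19, the type I keratin of bile duct cells, read 4.55, 5.44 and 5.19 in livers labelled control and 9.84, 8.94 and 9.61 in knockout livers. The groups lay far apart, at 5.06 ± 0.46 and 9.46 ± 0.46 (SD, n = 3), a log2 difference of 4.40 (SE 0.28, limma with Benjamini-Hochberg adjustment, adjusted p = 4.35e-05). Krt7, the type II keratin of the same cells, read 4.73, 5.24 and 5.06 against 9.06, 8.13 and 8.62. All 3 knockout livers were high, with a difference of 3.60 (SE 0.23, limma adjusted p = 4.53e-05). Krt20 read 3.46, 3.23 and 2.82 against 8.56, 6.81 and 7.44, so that the first knockout liver was the highest. Its difference was 4.43 (SE 0.38, limma adjusted p = 0.00017). No detection call came with the values of any gene. Whether Krt20, at 3.17 ± 0.32, or Krt23, at 4.24 ± 0.37, was expressed at all in livers labelled control cannot be read from them. No fold is given for either. The folds of Krt7 and Krt19 rest on levels of 5.01 and 5.06 in livers labelled control, not shown to be above background either. The same limit holds for dim keratin levels in the other comparisons. Krt23 read 3.83, 4.36 and 4.54 against 7.08, 6.43 and 6.77, again with no overlap, a difference of 2.52 (SE 0.22, limma adjusted p = 0.000172).

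The hepatocyte pair rose by less. Krt8 read 9.21, 9.59 and 8.86 in livers labelled control and 10.54, 10.32 and 10.18 in knockout livers, a difference of 1.13 (SE 0.19, limma adjusted p = 0.00386). Krt18 read 9.25, 9.55 and 8.97 against 10.72, 10.54 and 10.42, a difference of 1.30 (SE 0.17, limma adjusted p = 0.00103). Neither keratin overlapped between the groups, and the second liver labelled control was the closest to the knockouts for both. The median over the 18820 named genes was 5.03 to 5.15 in livers labelled control and 5.34 to 5.44 in knockouts at 52 weeks. When arrays were centred on that median, the middle of all differences shifted from -0.05 to -0.37, and Krt8 differed by 0.80 and Krt18 by 0.98, both still called in that fit. In RNA from whole liver, more cells of a type and more RNA per cell cannot be told apart.

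Other genes of bile duct cells moved with the keratins at 52 weeks. Of 20 listed biliary genes other than keratins, 17 were measured and all 17 rose, with a median difference of 2.75 against -0.05 over all genes. Mmp7, a matrix protease of injured bile ducts, rose by 5.11, the surface glycoprotein gene Cd24a by 4.15 and the tetraspanin gene Tspan8 by 4.22 on the log2 scale. The log2 of their summed level was 9.02 to 9.60 in livers labelled control and 12.22 to 12.61 in knockout livers, and its part in the keratin differences was not tested. Of 18 measured hepatocyte genes none rose and 3 fell, where 7.9% of all genes were called lower, namely Cyp2f2 (-1.99), the urea cycle gene Otc (-0.88) and the coagulation factor gene F9 (-0.61). The median of that list was -0.07, and its summed level was 16.25 to 16.54 in livers labelled control and 16.34 to 16.40 in knockouts.

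Markers of other cells that could carry keratins or dilute them were read in the same livers, where 13.6% of all genes were called higher and 7.9% lower. Of 6 mesothelial markers Msln rose by 3.45 (limma adjusted p = 0.000167) and Lrrn4 fell by 0.58, while Upk3b, Upk1b, Wt1 and Gpm6a were not called. The summed mesothelial level was 6.59 to 7.51 in livers labelled control and 7.72 to 8.39 in knockouts. Of 7 intestinal markers 3 rose, Cdh17 (1.89), Lgals4 (1.97) and Vil1 (1.46), while none of 7 squamous and urothelial and none of 4 exocrine pancreatic markers was called. Of the other lists, 6 of 7 macrophage, 5 of 6 T and NK cell and 5 of 6 proliferation markers rose. Of 7 stellate cell and fibroblast markers Pdgfrb rose (0.96) and Lrat fell (-2.19), and of 6 sinusoidal endothelial markers Clec4g fell (-0.47). The part of these cells in the keratin differences was not tested.

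A list of genes for filament partners and junctions changed in part. Besides keratin-binding and desmosome genes it held other intermediate filament genes (Vim, Des, Lmna, Lmnb1). It also held Cdh1 and Ctnna1, of other cell junctions, and the transcription factor gene Trp63. Of the 21 genes 11 rose and 1 fell at 52 weeks, with a median difference of 0.63. Of all genes 13.6% were called higher and 7.9% lower. Cdh1 (E-cadherin) rose by 2.76 and Ppl (periplakin, a linker of keratin to the cell cortex) by 2.63, while Lmna, a nuclear lamin, rose by 0.94. The gene that fell was Perp, a desmosome membrane protein (-0.85). Of 9 measured genes of bile duct growth and YAP signalling 7 rose, with a median of 1.33. The YAP targets Ankrd1 (2.94), Ajuba (2.21) and Ccn2 (2.47) had the smallest p-values of these.

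Genes linked to Mallory-Denk bodies and keratin stress did not move in 1 direction. Of 10 measured, 2 rose at 52 weeks, Nqo1 (1.20) and Anxa2 (1.32), and 2 fell, Fabp1 (-1.07) and the chaperone gene Hsp90aa1 (-0.66), with a median of -0.03. Of all genes 13.6% were called higher and 7.9% lower. Leaving out 1 liver at a time gave 0 to 2 risen and 1 to 2 fallen genes, so that these counts rest on single livers. Of the 45 other keratins, Krt80 rose (4.23 ± 0.14 to 4.96 ± 0.17, limma adjusted p = 0.00594) and Krt10 fell (4.45 ± 0.13 to 3.84 ± 0.06, limma adjusted p = 0.00724). The median of the 45 was -0.19. When arrays were centred on their medians, 33 of the 45 were called lower, as were 8942 of all 18820 genes (47.5%).

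**Figure D2:**
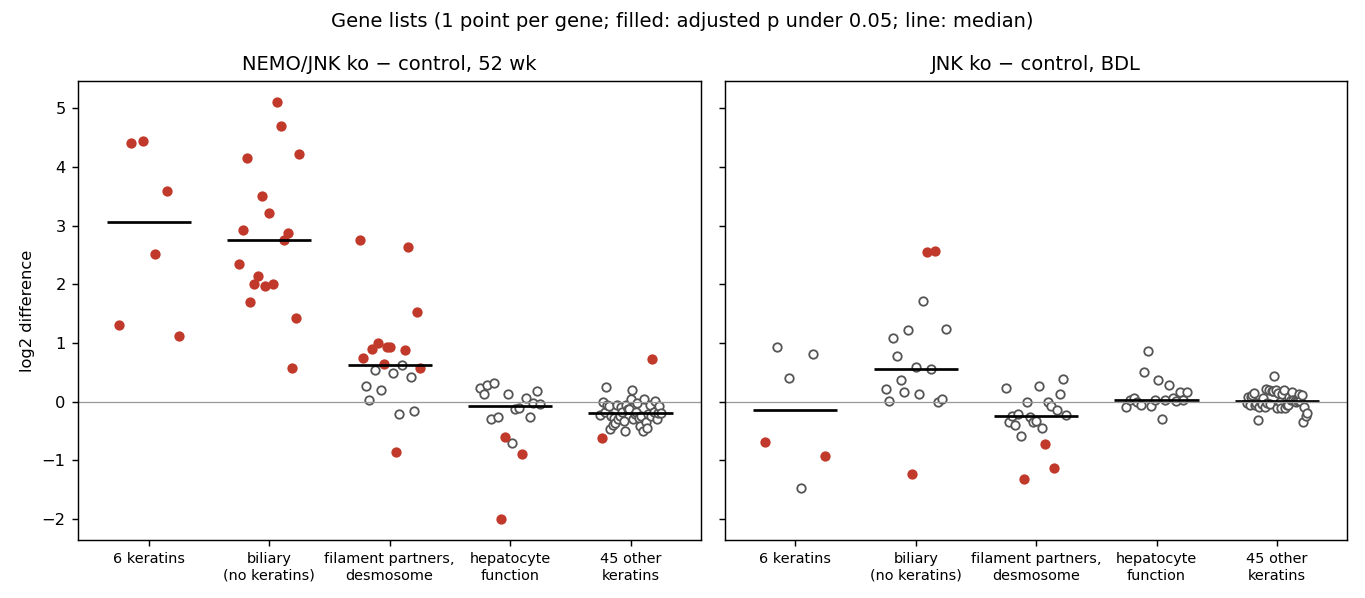
Log2 differences between knockout livers and livers labelled control at 52 weeks and after BDL (vertical axis), with 1 point per gene for the 6 keratins and 4 gene lists (horizontal axis), filled where the adjusted p was under 0.05, and a line at each median. At 52 weeks all 6 keratins and all 17 biliary genes lie above 0 and are filled, while the 45 other keratins have a median of -0.19.

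At 40 days after DEN the 2 bile duct keratins stood higher in JNKΔhepa livers, by 2.51-fold for Krt7 and 2.36-fold for Krt19. Neither passed the test. The other 4 keratins overlapped between the groups. Limma with Benjamini-Hochberg adjustment called 0 of the 18820 genes (0%), while 781 genes, Krt7 and Krt19 among them, had an unadjusted p under 0.05.

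Krt7 read 4.32, 4.85 and 4.76 in livers labelled control and 5.05, 6.83 and 6.03 in JNKΔhepa livers, and Krt19 read 4.90, 4.62 and 5.05 against 5.23, 6.15 and 6.91. The groups did not overlap for either gene, with the first JNKΔhepa liver the nearest to the livers labelled control. Of all genes 3.26% stood higher without overlap in this way. The log2 difference was 1.33 for Krt7 (95% interval 0.33 to 2.33, limma adjusted p = 0.985) and 1.24 for Krt19 (0.30 to 2.17, limma adjusted p = 0.985). The spread among JNKΔhepa livers was wide, with SDs of 0.89 for Krt7 and 0.84 for Krt19.

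The hepatocyte pair after DEN read 9.48, 10.23 and 9.71 against 9.40, 9.94 and 9.03 for Krt8, and 9.35, 10.32 and 10.01 against 9.54, 10.21 and 9.06 for Krt18. The groups overlapped, with differences of -0.35 (95% interval -1.02 to 0.32) and -0.29 (-1.12 to 0.54). Krt20 read 3.27, 3.87 and 4.28 against 3.84, 3.79 and 4.63 (difference 0.28, interval -0.48 to 1.04). Krt23 read 4.16, 5.57 and 4.68 against 4.37, 6.07 and 4.96 (difference 0.33, interval -0.86 to 1.52). In each group a single liver was the highest for Krt8, Krt18 and Krt23 at once.

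Among the biliary genes after DEN, limma called 0 of 17 and 3 had an unadjusted p under 0.05, with a median difference of 0.51 against -0.02 over all genes. The members with the smallest p were Muc1, a mucin (4.6 ± 0.16 in livers labelled control and 6.85 ± 1.11 in JNKΔhepa livers), and Mmp7 (4.26 ± 0.40 and 6.48 ± 1.17). Both were scattered among JNKΔhepa livers, as were Krt7 and Krt19. The summed biliary level was 9.21 to 10.61 and 9.35 to 11.64 in the same order, and its part in the keratin values was not tested. The list of filament partners and junctions had a median of -0.06, no called member and 1 of 21 at an unadjusted p under 0.05.

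After 28 days of bile duct ligation the hepatocyte pair fell in JNKΔhepa livers, Krt8 by 1.91-fold and Krt18 by 1.60-fold. Krt23 was also lower without passing the test, and Krt7, Krt19 and Krt20 were higher without passing it. Of all genes 0.558% were called lower and 0.797% higher in this comparison, and 2749 of the 18820 genes had an unadjusted p under 0.05.

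Krt8 read 11.02, 10.60 and 11.17 in livers labelled control and 10.04, 9.92 and 10.05 in JNKΔhepa livers. Every JNKΔhepa liver was below every liver labelled control, and the log2 difference was -0.93 (SE 0.16, limma adjusted p = 0.0347). Krt18 read 10.94, 10.59 and 10.94 against 10.12, 10.15 and 10.17, a difference of -0.68 (SE 0.12, limma adjusted p = 0.0487). The JNKΔhepa livers were close to each other (SD 0.07 for Krt8 and 0.03 for Krt18), and the second liver labelled control was the nearest to them. Both calls were close to the threshold. They were lost without the first liver labelled control (limma adjusted p = 0.125 for Krt8 and 0.145 for Krt18) or without the first (0.143 and 0.189), second (0.166 and 0.189) or the third JNKΔhepa liver (0.125 and 0.160), and Krt18 also without the third liver labelled control (0.062). Over all fits that left out 1 liver, with the call kept or lost, the differences stayed between -1.10 and -0.81 for Krt8 and between -0.79 and -0.62 for Krt18.

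Krt23 read 6.17, 5.06 and 6.92 in livers labelled control and 4.81, 4.47 and 4.49 in JNKΔhepa livers. It did not overlap, but the livers labelled control were scattered (SD 0.94), and the difference was -1.46 (95% interval -2.39 to -0.53, limma adjusted p = 0.143). Without the second liver labelled control, the lowest of its group, Krt23 was called (limma adjusted p = 0.0109). Of all genes 10.7% stood lower without overlap after BDL, as did Krt8, Krt18 and Krt23.

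Krt7 read 6.40, 5.94 and 5.49 in livers labelled control and 7.24, 6.57 and 6.48 in JNKΔhepa livers, a difference of 0.82 (95% interval 0.20 to 1.44, limma adjusted p = 0.211). Krt19 read 6.80, 7.38 and 5.60 against 8.10, 7.39 and 7.11, a difference of 0.94 (-0.07 to 1.95, limma adjusted p = 0.382), and overlapped. Krt20 read 3.62, 3.37 and 3.73 against 4.04, 4.07 and 3.84, a difference of 0.41 (0.11 to 0.71, limma adjusted p = 0.199). Krt7 and Krt20 stood higher without overlap, by gaps of only 0.08 and 0.11, as did 9.95% of all genes.

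The part of each mouse identifier before the hyphen was read here as an animal series. By that reading the first and second liver labelled control after BDL share a series, and the third falls with all JNKΔhepa livers in another. With the series as a block, so that 1 liver labelled control carries the contrast, the difference was -1.17 for Krt8 (limma adjusted p = 0.0568), -0.79 for Krt18 (0.115) and -2.33 for Krt23 (0.0589). It was 1.93 for Krt19 (0.0989), 1.27 for Krt7 (0.165) and 0.25 for Krt20 in the same fit. The directions were those without the block, and no keratin was called.

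On the list of filament partners and junctions 3 of 21 genes fell after BDL and none rose, with a median of -0.24 against -0.00 over all genes. Of all genes 0.558% were called lower and 0.797% higher. Eppk1 (epiplakin, which binds keratin filaments) fell by 1.31 (SE 0.13, limma adjusted p = 0.00462), Ppl by 1.13 (SE 0.15, 0.0151) and Pkp2 (plakophilin 2, a desmosome plaque protein) by 0.72 (SE 0.11, 0.026). Leaving out any 1 JNKΔhepa liver gave 1 call on this list and leaving out the first liver labelled control gave 2, while 4 were called without the second liver labelled control. Eppk1 and Ppl had both risen at 52 weeks, Eppk1 by 1.00 and Ppl by 2.63, as had Krt8 and Krt18. The difference between the 52-week and BDL effects was 2.31 for Eppk1 (SE 0.20, limma adjusted p = 6.26e-05) and 3.77 for Ppl (SE 0.35, limma adjusted p = 6.74e-05). For Pkp2, which was not called at 52 weeks (-0.21), it was 0.51 (SE 0.23, limma adjusted p = 0.156), not called.

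Biliary genes after BDL split, where 0.797% of all genes were called higher and 0.558% lower. Of 17 measured, 2 rose, Prom1 (2.57, limma adjusted p = 0.000311) and Muc1 (2.55, limma adjusted p = 0.0104), and 1 fell, the epithelial transcription factor gene Elf3 (-1.23, limma adjusted p = 0.0308), with a median of 0.56. Their summed level was 10.23 to 10.99 in livers labelled control and 11.06 to 11.55 in JNKΔhepa livers, and its part in the keratin values was not tested. The hepatocyte list had no called member, 2 of 18 at an unadjusted p under 0.05 and a median of 0.04, at summed levels of 16.44 to 16.51 and 16.53 to 16.57. Beside that median, Krt8 and Krt18 differed by -0.93 and -0.68. None of the 45 other keratins and none of 10 Mallory-Denk body genes was called by limma. In each of these lists 2 had an unadjusted p under 0.05, as had 2749 of all 18820 genes.

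Other cell markers also differed after BDL, where 0.797% of all genes were called higher and 0.558% lower. Of all 18820 genes 2749 had an unadjusted p under 0.05. Of 7 stellate cell and fibroblast markers Acta2 rose (1.35, limma adjusted p = 0.0276) and Lrat fell (-1.49, limma adjusted p = 0.0105), and 5 had an unadjusted p under 0.05. The log2 of their summed level was 11.14 to 11.66 in livers labelled control and 11.70 to 11.83 in JNKΔhepa livers. Of 6 sinusoidal endothelial markers Lyve1 fell (-1.69, limma adjusted p = 0.0207) and none was called higher, but the median difference of the list was 0.32. In this list 3 had an unadjusted p under 0.05, and the summed level was 10.95 to 11.01 and 10.99 to 11.27. Of 6 proliferation markers Rrm2 rose (1.32, limma adjusted p = 0.0105), and the summed level was 7.84 to 9.86 and 9.05 to 9.31. Limma called none of 6 mesothelial markers, 3 of which (Msln, Upk3b and Gpm6a) had an unadjusted p under 0.05, and their summed level was 7.12 to 7.32 and 7.45 to 7.83. It called none of 7 macrophage and none of 6 T and NK cell markers, with 2 of each at an unadjusted p under 0.05. The part of these cells in the keratin values was not tested.

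At 8 weeks, between NEMO single knockout and NEMO/JNK1Δhepa livers, all 6 keratins overlapped and none was called. Limma called 0 of 18820 genes (0%), with 1442 at an unadjusted p under 0.05 and no keratin among them, and 14.4% of all genes did not overlap. Krt8 read 10.69, 10.69 and 10.19 in NEMO livers and 10.24, 9.95 and 10.80 in NEMO/JNK1Δhepa livers. Krt18 read 10.69, 10.87 and 10.20 against 10.34, 10.23 and 11.13. All 6 livers were at 9.95 or above for Krt8 and 10.20 or above for Krt18, with differences of -0.20 (95% interval -0.80 to 0.41) and -0.02 (-0.70 to 0.66).

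Krt7 read 5.0, 4.15 and 5.62 in NEMO livers and 5.76, 4.89 and 4.41 in NEMO/JNK1Δhepa livers (difference 0.10, 95% interval -1.0 to 1.20). Krt19 read 5.29, 4.50 and 7.33 against 5.79, 4.40 and 4.55 (difference -0.79, interval -2.56 to 0.98), with the third NEMO liver far above the others. Krt20 read 5.47, 3.53 and 3.34 against 3.24, 5.20 and 4.79 (difference 0.30, interval -1.39 to 1.98). Krt20 was at 4.79 or above in 3 of the 6 livers, 1 NEMO and 2 NEMO/JNK1Δhepa. Krt23 read 4.46, 3.79 and 5.33 against 4.56, 4.48 and 5.72 (difference 0.40, interval -0.73 to 1.53). These intervals, from 3 livers a group, leave room for differences of 1 or more in Krt7, Krt19, Krt20 and Krt23, and such changes are not excluded. The 2 groups carry mouse identifiers with different beginnings, read here as different animal series, and series and genotype cannot be told apart there.

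**Figure D3:**
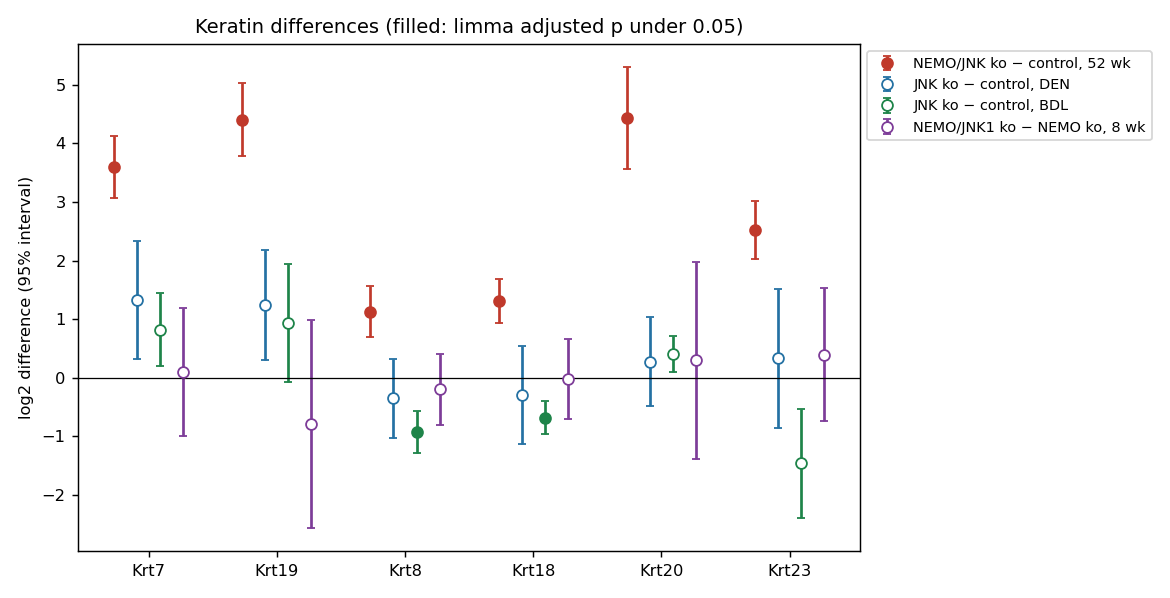
Log2 difference between the 2 genotypes of each comparison (vertical axis) for each keratin (horizontal axis), with 95% intervals, filled where the limma adjusted p was under 0.05. All 6 keratins are filled and above 0 at 52 weeks, Krt8 and Krt18 are filled and below 0 after BDL, and no point is filled for DEN or 8 weeks.

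The genotype differences were then compared between experiments, which also differ in age, treatment and the genes deleted, so that these cannot be told apart. The 52-week difference exceeded the BDL difference for all 6 keratins, by 2.78 for Krt7, 2.06 for Krt8, 1.98 for Krt18, 3.46 for Krt19, 4.03 for Krt20 and 3.98 for Krt23. Limma adjusted p-values ran from 0.000164 to 0.00193, and 10.4% of all genes were called in that direction. For Krt8 and Krt18 the effects had opposite signs, a rise at 52 weeks and a fall after BDL.

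Set against DEN, the 52-week difference was larger by 2.27 for Krt7 (limma adjusted p = 0.0498), 3.16 for Krt19 (0.0175) and 4.16 for Krt20 (0.00991), where 1.66% of all genes were called in that direction. It was larger by 1.48 for Krt8 (limma adjusted p = 0.0607), 1.60 for Krt18 (0.0686) and 2.19 for Krt23 (0.0786), none called. Leaving out 1 liver at a time gave 1 to 6 called keratins. Between BDL and DEN no keratin effect was called different by limma, and 9 genes were (0.0478%). The furthest apart was Krt23, by -1.79 (SE 0.72, limma adjusted p = 0.636), the single keratin with an unadjusted p under 0.05.

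Partner keratins were also compared within each liver, which shows whether they changed unequally and removes any scaling of the array. Krt8 minus Krt18 was -0.21 ± 0.03 in NEMO/JNKΔhepa livers and -0.03 ± 0.08 in livers labelled control at 52 weeks, a shift of -0.18 (SD, n = 3, two-sided exact permutation p = 0.1). After BDL it was -0.15 ± 0.08 in JNKΔhepa livers and 0.11 ± 0.12 in livers labelled control, a shift of -0.25 (exact permutation p = 0.1). The shift was -0.06 for DEN and -0.175 at 8 weeks (exact permutation p = 0.8 and 0.2). The mean shift was below 0 in all 4 comparisons, and for DEN it turned sign when 1 liver was left out.

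Krt19 minus Krt7 was 0.86 ± 0.11 in NEMO/JNKΔhepa livers and 0.05 ± 0.20 in livers labelled control at 52 weeks, a shift of 0.81 (exact permutation p = 0.1). The shift was -0.09 for DEN, 0.12 after BDL and -0.89 at 8 weeks (exact permutation p = 0.9, 0.9 and 0.1). With 3 livers against 3 the smallest p is 0.1, so that no shift could pass the threshold of 0.05 whatever its size. Adjusted over the 8 tests the values ran from 0.2 to 0.9, and no conclusion is drawn from them.

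Across all 8 groups Krt7, Krt19 and Krt20 were highest in NEMO/JNKΔhepa livers at 52 weeks (8.61 ± 0.46, 9.46 ± 0.46 and 7.60 ± 0.88), with no overlap with the next group. For Krt7 and Krt19 that next group was JNKΔhepa after BDL (6.76 ± 0.41 and 7.53 ± 0.51), and for Krt20 it was NEMO/JNK1Δhepa at 8 weeks (4.41 ± 1.04). Below the top group the order ran from JNKΔhepa after BDL down to livers labelled control after DEN for Krt7 (4.64 ± 0.28) and Krt19 (4.86 ± 0.22), and every pair of neighbours overlapped. Krt23 was highest in the same 52-week group (6.76 ± 0.33) but overlapped with livers labelled control after BDL (6.05 ± 0.94). Krt20 and Krt23 were lowest in livers labelled control at 52 weeks (3.17 ± 0.32 and 4.24 ± 0.37).

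Krt8 and Krt18 had another order. Both were highest in livers labelled control after BDL (10.93 ± 0.30 and 10.82 ± 0.20), followed by NEMO livers at 8 weeks (10.53 ± 0.29 and 10.59 ± 0.35), and lowest in livers labelled control at 52 weeks (9.22 ± 0.37 and 9.26 ± 0.29). NEMO/JNKΔhepa livers at 52 weeks (10.35 ± 0.18 and 10.56 ± 0.15) stood beside NEMO/JNK1Δhepa livers at 8 weeks (10.33 ± 0.43 and 10.57 ± 0.49). All neighbours overlapped, except that Krt18 in NEMO/JNKΔhepa livers at 52 weeks stood clear above JNKΔhepa livers after BDL (10.15 ± 0.03). The BDL livers labelled control thus carried the highest levels of the hepatocyte pair and middling levels of the bile duct pair.

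The keratins fell into pairs over the 24 livers. Krt8 and Krt18 correlated at r = 0.97, at 0.97 over the 21 livers other than NEMO/JNKΔhepa at 52 weeks, and at 0.95 within groups (each value minus its group mean). Krt7 and Krt19 correlated at 0.95, 0.88 and 0.76 in the same order. Between the pairs the values were low, at 0.19, 0.09 and -0.38 for Krt8 with Krt19 and 0.18, 0.07 and 0.03 for Krt7 with Krt8. Krt20 correlated with Krt7 at 0.70 over all livers but at -0.06 over the 21, so that this value rests on the 52-week knockouts. Krt23 lay between the pairs, at 0.52, 0.55 and 0.53 with Krt8 and 0.67, 0.34 and 0.43 with Krt7. Livers of a group share genotype, age and treatment, and these values are descriptions.

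**Figure D4:**
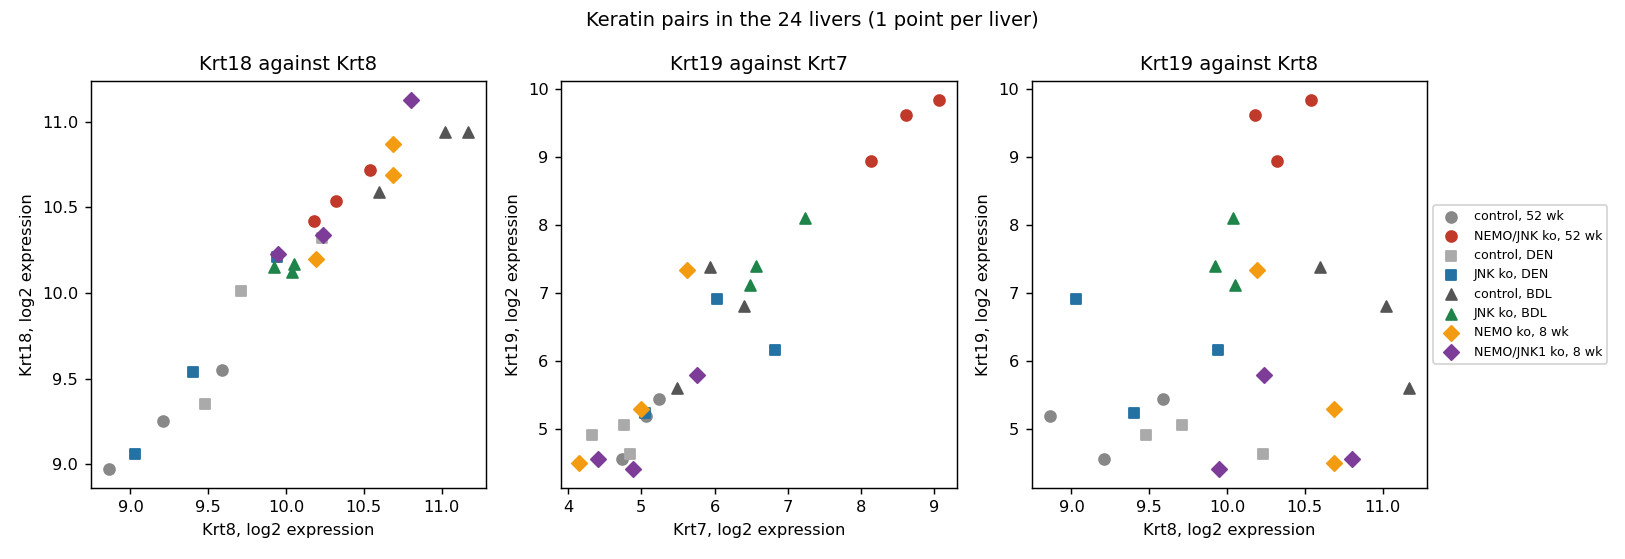
Log2 expression of 1 keratin against another (both axes), with 1 point per liver for the 24 livers, coloured by group. Krt18 follows Krt8 closely (r = 0.97) and Krt19 follows Krt7 (r = 0.95), while Krt8 and Krt19 show no common line (r = 0.19).

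The genes most like each keratin over the 24 livers differed between the pairs too. For Krt19 they were Kcnk1 (r = 0.963), the transcription factor gene Klf5 (0.955) and Muc1 (0.945), at 0.857, 0.869 and 0.917 within groups. For Krt7 they were Mboat1 (0.954), Epn3 (0.953) and Msln (0.950), at 0.811, 0.727 and 0.775 within groups. Msln is a mesothelial marker by the list above. For Krt8 they were the fatty acid elongase gene Elovl7 (0.919), the actin bundler gene Pls1 (0.913) and Ttc39a (0.911), and for Krt18 Pls1 (0.936), Npdc1 (0.929) and Tm4sf4 (0.923). Pls1 thus stood among the first 3 for both hepatocyte keratins. For Krt23 they were Slc4a11 (0.846), Agrn (0.843) and the plakoglobin gene Jup (0.828), a desmosome component. For Krt20 they were Arhgap40 (0.905), Ccnd2 (0.868) and Cdhr3 (0.855), which over the 21 other livers came to 0.467, 0.364 and -0.084.

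Genes beside the keratins on the chromosome were read as a last description. Krt78, Krt79 and Krt4 beside Krt8, and Eif4b on the other side of Krt18, were called in none of the 4 comparisons by limma. Tns2, the next gene, rose at 52 weeks by 0.74 (limma adjusted p = 0.00363) and differed by -0.65 after BDL (limma adjusted p = 0.151). Krt15, beside Krt19, was not called in any.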

How the data were processed

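The deposited values are log2 expression levels per probe set of a whole-transcript Affymetrix mouse array, and the submitters' processing notes name RMA as the method behind them. RMA corrects background, normalises quantiles and summarises probes, and differences of dim genes come out compressed. Its program, chip definition and build: not given in the sources used here. No detection call was used. Per the labels, RNA from snap-frozen liver passed an integrity check.

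Of 35556 probe sets, 21218 had 1 gene symbol, 1881 several and 12457 none, by the platform annotation. For 21185 the Entrez identifier matched RefSeq (GRCm38.p6), which changed 0 symbols. They stood for 18820 genes. For the 1386 genes with several probe sets, the one whose mean over 24 arrays was highest was used.

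Each comparison was fitted to its own arrays with limma 3.58.1 in R 4.3.3 (linear model, moderated variance, two-sided). P-values were adjusted by Benjamini-Hochberg over all 18820 genes, with the call set at an adjusted p under 0.05. Differences of effects used the 12 arrays of both experiments. Within-liver shifts used exact permutation tests (SciPy 1.17.1). Fits were checked on simulated data. Groups came from the labels, mouse identifiers differ throughout, and 3 livers a group limit the precision.

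The members, the gene lists and the motifs were chosen with earlier results of these data known. Genes named besides the keratins were the 3 called list members (2 outside 52 weeks) with the smallest p, the 3 genes with the highest correlation, and members of small counts, chosen after their values were seen. Alternatives were a filter on dim genes, quantile normalisation, array centring, all 24 arrays in 1 fit, array weights, a trended and robust variance prior, the mean of a gene's probe sets, a replicate block, an animal series block and leaving out each liver.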

Additional observations from a re-analysis of the deposited data

Results flagged for a closer look

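The keratins whose genotype effect differed between experiments, by a limma test of the difference over 12 arrays with Benjamini-Hochberg adjustment over all genes, are collected here. Between 52 weeks and BDL the log2 difference of effects was 2.78 for Krt7, 2.06 for Krt8, 1.98 for Krt18, 3.46 for Krt19, 4.03 for Krt20 and 3.98 for Krt23. Between 52 weeks and DEN it was 2.27 for Krt7, 3.16 for Krt19 and 4.16 for Krt20. The experiments differ in deleted genes, age and treatment at once, which cannot be told apart.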

How the results depend on the processing

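All 6 keratins were called higher at 52 weeks, and all 6 called different between 52 weeks and BDL, in every fit that tested them. The filter on dim genes kept all 6 keratins at 52 weeks, all but Krt20 for 52 weeks against BDL, and Krt8 and Krt18 alone at 8 weeks. In the other comparisons it left Krt20 and Krt23 untested. It used the mean over all livers compared. Krt20 and Krt23, at 3.17 and 4.24 in livers labelled control at 52 weeks, passed it there through the knockout livers. For them the filter is no check on dim signal. Each keratin has 1 probe set, so that the mean over probe sets could not change its difference. For BDL, the 2 calls became 0 with all 24 arrays in 1 fit, 0 with the replicate block (limma adjusted p = 0.0531 for Krt8 and 0.1003 for Krt18) and 0 with the animal series block, and 0 to 3 when 1 liver was left out. Same-numbered livers correlated, in their deviations from the group means, at 0.02, 0.04 and 0.02 at 52 weeks, at 0.36, 0.30 and 0.04 for DEN, at 0.14, -0.07 and 0.04 for BDL and at 0.01, -0.02 and -0.07 at 8 weeks. At 52 weeks every liver correlated best with its own number, but only at 0.02 to 0.04. For DEN the first and second liver did so at 0.36 and 0.30, a hint of pairing from the data and not from the design. In the comparisons other than 52 weeks the best match was not the own number for every liver. With the replicate block for DEN, the SE moved from 0.50 to 0.13 for Krt23 and from 0.42 to 0.25 for Krt7, and no gene was called. For 52 weeks against DEN, the 3 calls became 5 with all 24 arrays, 6 with array weights and 1 to 6 when 1 liver was left out. The replicate block called Krt8, Krt18, Krt19 and Krt20 there, but not Krt7 (limma adjusted p = 0.0525). No keratin was called for DEN or 8 weeks in any fit. The cause of these moves was not tested.

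Signs turned only for differences that were not called. At 8 weeks Krt18 was 0.085 after quantile normalisation and Krt20 -0.488 with array weights. Between BDL and DEN, array weights gave 0.101 for Krt18 and -0.181 for Krt20. Leaving out 1 liver gave -0.137 to 0.715 for Krt23 after DEN. At 8 weeks it gave -0.287 to 0.449 for Krt7, -0.302 to 0.144 for Krt18, -1.395 to 0.02 for Krt19, -0.098 to 0.974 for Krt20 and -0.003 to 0.799 for Krt23. Between BDL and DEN it gave -0.798 to 0.104 for Krt19 and -0.107 to 0.401 for Krt20. Krt8 minus Krt18 after DEN ran from -0.162 to 0.049, and Krt19 minus Krt7 from -0.464 to 0.312 after DEN and -0.151 to 0.517 after BDL.

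Over all genes, BDL gave 255 calls, against 116 with all 24 arrays, 391 with array weights, 142 with the replicate block and 118 with the series block. At 52 weeks, calls numbered 2562 higher and 1486 lower, against 1570 and 8942 with arrays centred and 2115 and 2426 after quantile normalisation. At 8 weeks 0 calls became 57 with all 24 arrays, no keratin among them.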
